A study of Homo sapiens with 4 samples.

Results

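The HOX genes of HGC-27 cells were taken as every gene whose name consisted of HOX, a cluster letter from A to D and a paralog number. Of the 39 such genes in GENCODE 29, 38 had a count in at least 1 of the 4 libraries, out of 31907 gene names in all, and HOXC12 had none. HGC-27 is an established cell line from an undifferentiated gastric carcinoma. RNA was sequenced from cells kept for 48 h with phosphate-buffered saline (PBS, 2 libraries) or with 200 ng/ml of recombinant human IL-17B (rIL-17B, 2 libraries), a cytokine of the IL-17 family. All 4 libraries came from the same line, and nothing in the labels said whether the replicates were separate cultures, so every p-value measures only the spread between these libraries. The question of the comparison was which transcripts the cytokine changed in gastric cancer cells.

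HOX genes encode homeodomain transcription factors that tell cells where along the head-to-tail axis they lie. They sit in 4 clusters in which the paralog numbers run from the 3′ end, whose genes are used early and in front parts of the embryo, to the 5′ end, whose genes are used late and further back. Adult cells, fibroblasts and other mesenchymal cells above all, keep a set of active HOX genes that reflects the site they came from. Retinoic acid switches on the 3′ genes, CDX factors act on the central genes, and Polycomb and trithorax proteins hold the clusters silent or active. HOX proteins bind DNA together with cofactors of the TALE class, PBX, MEIS and PKNOX. Here paralogs 1 to 3 are called anterior, 4 to 8 central and 9 to 13 posterior.

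The libraries held between 12888029 and 17555879 counts, and levels are given as CPM, the count divided by the library total and scaled to 1e6. The detection floor of 3 counts lay between 0.171 and 0.233 CPM. rIL-17B replicate 1 stood apart from the other 3 libraries in the defining markers of several cell types. The summed CPM of 14 mesenchymal markers was 51539 and 50584 in the PBS libraries, 1079 in rIL-17B replicate 1 and 43092 CPM in rIL-17B replicate 2. With PBS, FN1, COL1A1, COL1A2 and COL3A1 made up most of that sum. COL1A2, a chain of type I collagen, had 16 counts in rIL-17B replicate 1 against 67635 to 87731 elsewhere. With 0.5 CPM added, 12 of the 14 were at least 2-fold lower in rIL-17B replicate 1, where 18.6% of all genes tested were. The other 2, TWIST1 and TWIST2, were at 99.7% and 114% of the pooled PBS level there. The summed CPM of 14 epithelial markers was 1026 and 1024 with PBS, 2278 in rIL-17B replicate 1 and 1284 CPM in rIL-17B replicate 2. Most of it came from KRT8, KRT7 and KRT18, while KRT19 had 47, 43, 1 and 58 counts in the same order. The 14 gastric lineage markers summed to 96.1, 134, 15.3 and 73.0 CPM, most of it SOX2 with 75.5, 116, 10.9 and 56.6 CPM, with TFF1, GKN2, PGC and FOXA2 at 0 counts in all 4 libraries. The 14 monocyte markers summed to 24.3, 22.9, 8.62 and 24.7 CPM, and 10 of them were at 0 in rIL-17B replicate 1, against 1 in each PBS library and 0 in rIL-17B replicate 2. CSF1R went against most of that list, with 3.90, 5.59, 8.14 and 6.15 CPM, and made up most of the 8.62 CPM. CD68, at 0 in both PBS libraries, was not at 0 in either rIL-17B library. The part of these differences in the HOX results was not tested, and in bulk RNA fewer cells of a type and less RNA per cell cannot be told apart. The HOX results are therefore given for each rIL-17B library and with and without rIL-17B replicate 1.

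RefSeq promoter sequences (GRCh38.p14, 250 bases before to 50 bases after the transcription start) matched 20 of the 39 HOX genes. 5 are printed, 4 of them because they stand on either side of a step in the expression values inside a cluster and HOXA2 for its motif matches. HOXA9 and HOXA10 are neighbours, of which rIL-17B replicate 1 had 16.9% and 71.8% of the PBS mean. HOXD8 and HOXD10 are close neighbours at 83.9% and 3.21%. HOXA2, at 6.49% of the PBS mean, has the printed promoter with matches to motifs of both HOX-PBX pairs and MEIS. The motifs searched on both strands were TGATTGAT (HOX-PBX site), TGACAG (MEIS core), TTTATG (core of CDX and posterior HOX sites), AGGTCA (core site of nuclear receptors such as those for retinoic acid) and GGGCGG (GC box), and capitals mark matches in either orientation. None of the 5 matches overlapped another.
HOXA2 (chr7:27102634-27102933, minus strand): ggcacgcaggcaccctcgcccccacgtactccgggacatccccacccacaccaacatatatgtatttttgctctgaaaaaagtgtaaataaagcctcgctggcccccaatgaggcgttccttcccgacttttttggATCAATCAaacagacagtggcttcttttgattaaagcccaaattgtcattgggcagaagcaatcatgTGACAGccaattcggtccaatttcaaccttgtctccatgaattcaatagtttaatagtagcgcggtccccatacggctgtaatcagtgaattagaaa
HOXA9 (chr7:27165488-27165787, minus strand): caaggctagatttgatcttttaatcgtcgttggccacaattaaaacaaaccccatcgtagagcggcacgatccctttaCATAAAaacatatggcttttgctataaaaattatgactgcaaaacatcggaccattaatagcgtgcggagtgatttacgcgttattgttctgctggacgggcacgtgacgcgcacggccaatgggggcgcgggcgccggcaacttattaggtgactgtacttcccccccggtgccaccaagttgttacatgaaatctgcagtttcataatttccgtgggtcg
HOXA10 (chr7:27179812-27180111, minus strand): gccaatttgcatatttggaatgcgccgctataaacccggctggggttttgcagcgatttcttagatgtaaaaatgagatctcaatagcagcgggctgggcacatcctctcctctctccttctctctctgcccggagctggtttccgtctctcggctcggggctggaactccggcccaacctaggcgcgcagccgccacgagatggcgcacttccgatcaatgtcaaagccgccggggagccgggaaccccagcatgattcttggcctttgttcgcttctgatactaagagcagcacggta
HOXD8 (chr2:176129455-176129754, plus strand): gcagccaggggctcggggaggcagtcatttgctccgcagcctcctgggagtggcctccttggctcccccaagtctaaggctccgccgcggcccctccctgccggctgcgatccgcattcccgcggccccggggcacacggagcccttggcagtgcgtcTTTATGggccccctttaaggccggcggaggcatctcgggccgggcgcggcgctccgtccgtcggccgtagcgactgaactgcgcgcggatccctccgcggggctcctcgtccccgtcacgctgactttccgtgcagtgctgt
HOXD10 (chr2:176116528-176116827, plus strand): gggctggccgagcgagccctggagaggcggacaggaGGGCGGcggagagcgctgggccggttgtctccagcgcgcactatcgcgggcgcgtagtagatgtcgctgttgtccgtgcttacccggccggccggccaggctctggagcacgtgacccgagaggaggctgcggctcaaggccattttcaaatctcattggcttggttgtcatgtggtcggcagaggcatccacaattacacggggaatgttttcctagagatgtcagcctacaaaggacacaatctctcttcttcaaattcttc
The HOXA2 window held 1 HOX-PBX match and 1 MEIS match, HOXA9 and HOXD8 held 1 TTTATG match each, HOXD10 held 1 GC box and HOXA10 held no match. Among the 20 HOX promoters, 2 held TGATTGAT (HOXA2 and HOXD11), which 0.48% of all 35116 promoters held. TGACAG was in 4 of the 20 and in 15.76% of all promoters, TTTATG in 3 of the 20 and in 10.58%, GGGCGG in 10 of the 20 and in 44.95%, and AGGTCA in none of the 20 and in 13.83%. The HOX promoters were rich in CpG, with a median observed-to-expected ratio of 0.869 against 0.579 over all promoters. That ratio had a median of 0.883 in the 6 promoters of genes below 25% of the PBS mean in rIL-17B replicate 1 and 0.815 in the 6 of genes above 50%. HOXC4 and HOXC5 had the same promoter window in RefSeq, with a ratio of 0.755. The 20 HOX promoters and the 6 of genes above 50% count this window under both names. No difference is therefore read from the medians of the sets of 6.

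HGC-27 cells used genes from all 4 clusters. In the PBS libraries 29 and 31 HOX genes reached 1 CPM, and their CPM summed to 275 and 302. rIL-17B replicate 1 had 21 such genes and a sum of 135 CPM, and rIL-17B replicate 2 had 28 and 244 CPM. In both rIL-17B libraries the sum was below both PBS libraries, and rIL-17B replicate 1 lay much further down. 31 genes reached 1 CPM in at least 1 library. The other 7 with a count, HOXA4, HOXB1, HOXD1, HOXD3, HOXD4, HOXD12 and HOXD13, had at most 6 counts in any library and 0 counts in rIL-17B replicate 1. Those 7 did not pass the filter on low counts, and their counts limit what can be said of them: HOXA4 had 5 and 6 counts with PBS, 0 in rIL-17B replicate 1 and 2 counts in rIL-17B replicate 2, and HOXD4 had 2, 6, 0 and 0 in that order.

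**Figure D1:**
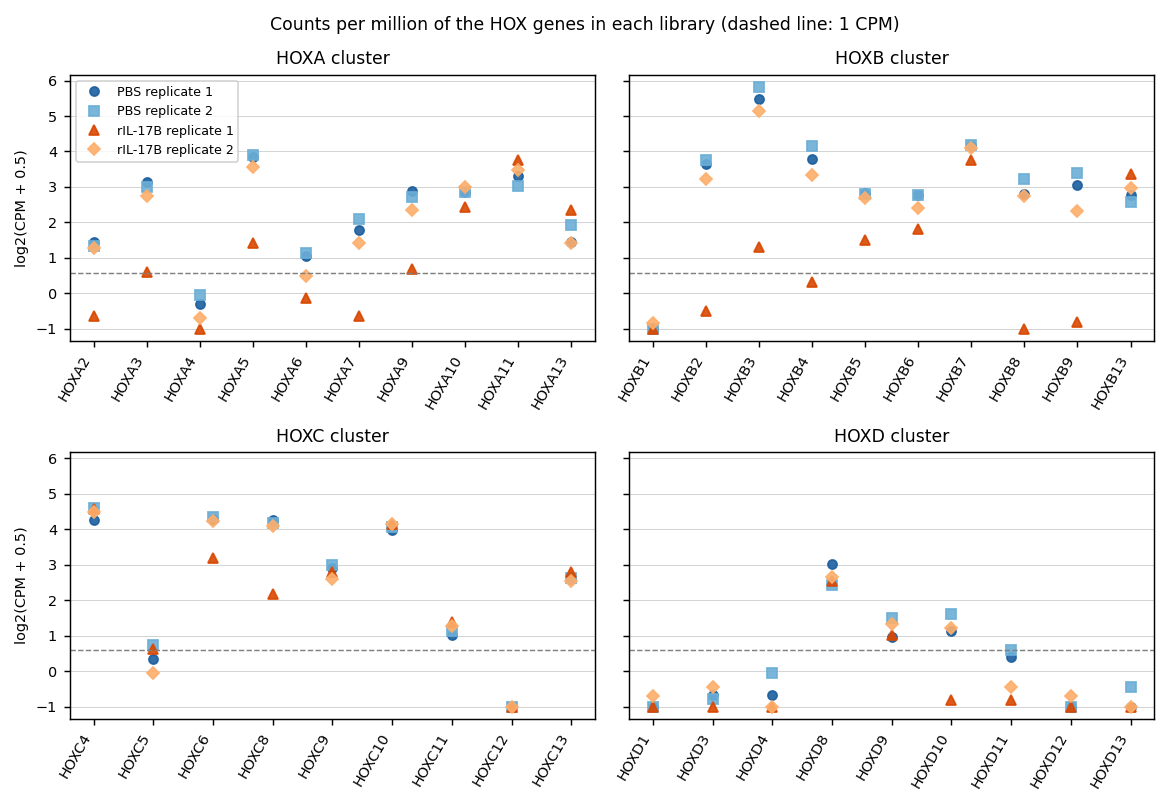
Level of the HOX genes in each of the 4 libraries, as log2 of the CPM plus 0.5, with 1 panel per cluster and genes in paralog order; each point is 1 library and the dashed line marks 1 CPM. The points of rIL-17B replicate 1 lie far below the others for HOXB2 (0.205 CPM against 8.77 to 13.1) and together with them for HOXC4 (23.1 CPM against 18.9 to 23.7).

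Per kilobase of exon, which allows genes to be compared, HOXB7 stood highest with PBS at 11.4 and 11.5 RPKM, the CPM divided by the exon length in kilobases. HOXC8 followed at 9.95 and 9.28 RPKM, HOXA5 at 8.10 and 8.50 and HOXC4 at 6.92 and 8.68. HOXD11 was lowest of the 31 at 0.387 and 0.478 RPKM. The PBS order was loose: in 21 of the 30 pairs of neighbours in it the ranges of the PBS libraries overlapped. HOXB7 did not overlap HOXC8, nor HOXC8 HOXA5. In rIL-17B replicate 1 HOXB7 was still highest at 8.51 RPKM, followed by HOXC4 at 8.49 RPKM, while HOXB3 moved from rank 6 in PBS replicate 1 to 21 and HOXB2 from 8 to 24. In rIL-17B replicate 2 the same 2 genes held ranks 7 and 9.

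As sums, anterior genes differed most between the libraries and posterior genes least. Anterior HOX genes summed to 68.2 and 80.5 CPM with PBS, 3.49 CPM in rIL-17B replicate 1 and 53.0 CPM in rIL-17B replicate 2. Of these sums the HOXB cluster gave 56.0, 69.4, 2.19 and 43.5 CPM. HOXC has no anterior gene, so paralog group and cluster cannot be fully told apart. Central genes summed to 134, 145, 64.0 and 121 CPM in the same order. Posterior genes summed to 72.9, 76.7, 67.1 and 70.6 CPM. The anterior sum of rIL-17B replicate 1 was thus the outlying value, and the posterior sums of all 4 libraries were close. As medians of the percentage of the PBS mean, the 5 anterior genes that reached 1 CPM had 6.49% in rIL-17B replicate 1, with 69.5% in rIL-17B replicate 2. For the 13 central genes the medians were 35.3% and 81.1%, and for the 13 posterior genes 88.7% and 94.1%. On library totals, the posterior genes went both ways in rIL-17B replicate 1, from 0.772% to 166%. Of the 13, 4 were below 25% (HOXA9, HOXB9, HOXD10 and HOXD11) and 6 above 100%. Over the 31 genes, which share their libraries and in part their reads, Spearman's rho of paralog number with the log2 ratio to the PBS mean was 0.569 in rIL-17B replicate 1, with 0.398 in rIL-17B replicate 2. The same rho for PBS replicate 2 over PBS replicate 1 was 0.044.

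**Figure D2:**
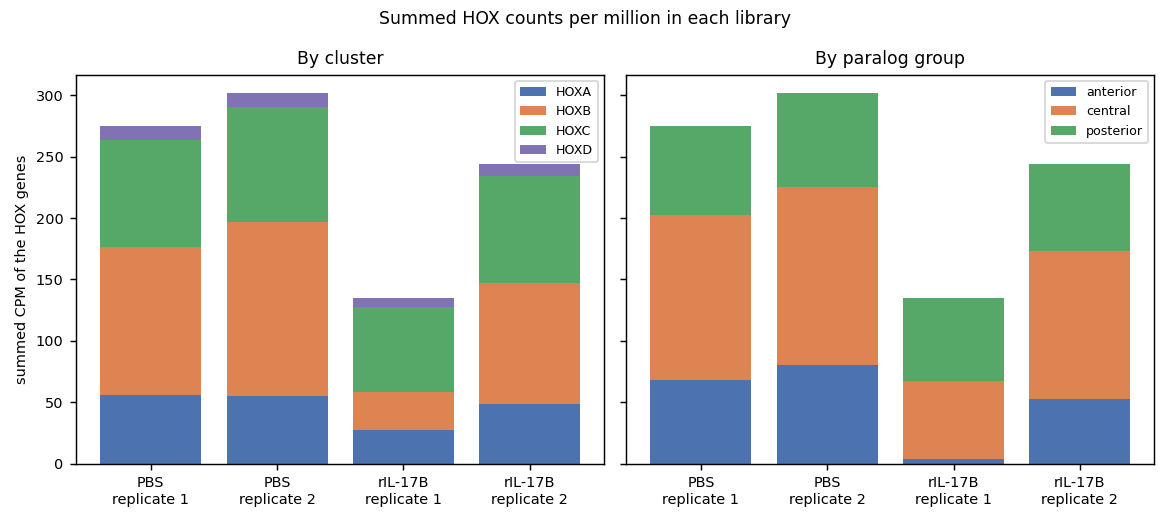
Summed CPM of the HOX genes in each library, stacked by cluster on the left and by paralog group on the right (anterior 1 to 3, central 4 to 8, posterior 9 to 13). The anterior block is 68.2 and 80.5 CPM with PBS, 3.49 CPM in rIL-17B replicate 1 and 53.0 CPM in rIL-17B replicate 2.

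The HOXA cluster lies on chromosome 7 (GRCh38, minus strand), with HOXA2 to HOXA13 between 27100354 and 27200106. HOXA2, a gene of the hindbrain and the second pharyngeal arch, had 2.2 and 2.02 CPM with PBS, 0.137 CPM in rIL-17B replicate 1 and 1.94 CPM in rIL-17B replicate 2. HOXA3, needed for thymus and parathyroid, had 8.24, 7.53, 1.03 and 6.21 CPM in that order. In both genes the rIL-17B libraries were below both PBS libraries, rIL-17B replicate 2 only by a little. HOXA5, which acts in lung and gut mesenchyme, had 13.8, 14.5, 2.19 and 11.4 CPM and was the highest gene of the cluster per kilobase with PBS. HOXA6 had 1.57, 1.71, 0.410 and 0.911 CPM. HOXA7 had 2.96, 3.80, 0.137 and 2.16 CPM, from 47, 49, 2 and 38 counts. HOXA9, a regulator of blood progenitors, had 6.92, 6.05, 1.09 and 4.56 CPM. From HOXA2 to HOXA9 every gene named lay between 4.05% and 25% of the PBS mean in rIL-17B replicate 1. Their groups did not overlap, where 30.4% of all genes tested were lower without overlap in TMM-normalized CPM. HOXA2 and HOXA7 had 2 counts each there, and as shares of the pooled PBS level their exact 95% intervals ran from 0.765 to 24.4% and from 0.490 to 15.2%. HOXA10, a gene of the uterus and hindlimb, had 6.79, 6.75, 4.86 and 7.46 CPM, so that its groups overlapped. HOXA11, also of uterus and limb, had 9.49, 7.68, 12.9 and 10.5 CPM, both rIL-17B libraries above both PBS libraries. HOXA13, a gene of the hindgut and the digits, had 2.2, 3.34, 4.58 and 2.16 CPM, and only rIL-17B replicate 1 was above the PBS range. In rIL-17B replicate 1 the step thus lay between HOXA9, at 16.9% of the PBS mean, and HOXA10, at 71.8%, which was itself called lower without rIL-17B replicate 2 (-0.62, SE 0.26, edgeR adjusted p = 0.0338). Their exons overlap noncoding transcripts of the cluster over 27.0% and 26.3% of their length, and 62.5% of the HOXA7 exon bases are shared with HOXA-AS3 on the opposite strand. Since the use of strand in the counting is not known, the reads of such partners cannot be told apart.

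The HOXB cluster (chromosome 17, 48528526 to 48729178, minus strand) held the largest share of HOX counts with PBS, 43.7% (Wilson 95% interval 42.2 to 45.2) and 46.9% (45.3 to 48.4). Its share was 23.1% (21.3 to 25.1) in rIL-17B replicate 1 and 40.4% (38.9 to 41.9) in rIL-17B replicate 2, and these intervals cover counting error only. HOXB2, which acts in the hindbrain, had 12.1 and 13.1 CPM with PBS, 0.205 CPM in rIL-17B replicate 1 and 8.77 CPM in rIL-17B replicate 2. HOXB3 was the HOX gene with most counts in 3 libraries, at 698 and 726 counts with PBS and 608 in rIL-17B replicate 2, against 29 in rIL-17B replicate 1. HOXB4, known for the expansion of blood stem cells, had 13.2, 17.4, 0.753 and 9.63 CPM. These 3 genes were at 1.63%, 3.96% and 4.92% of the PBS mean in rIL-17B replicate 1, whereas rIL-17B replicate 2 had between 63.0% and 69.5%. The value of HOXB2 rests on 3 counts, with an exact 95% interval of 0.335 to 4.81%. Next to them on the chromosome the differences were smaller. HOXB5 had 6.66, 6.52, 2.33 and 5.92 CPM. HOXB6 had 6.29, 6.28, 3.01 and 4.84 CPM, and HOXB7 had 17.4, 17.6, 13 and 16.7 CPM. All of these kept both rIL-17B libraries below both PBS libraries, HOXB7 by the least. In TMM-normalized CPM 30.4% of all genes tested did so. Further 5′ the levels of rIL-17B replicate 1 were at or near 0 again. HOXB8 had 102 and 113 counts with PBS, 0 in rIL-17B replicate 1 and 108 counts in rIL-17B replicate 2. A floor of 3 counts in rIL-17B replicate 1, taken as its bound, is 36.97-fold below the PBS mean. The exact 95% interval there ran from 0 to 3.41% of the pooled PBS level. HOXB9 had 124, 128, 1 and 79 counts, and the single count is 0.782% of the pooled PBS level with an exact 95% interval of 0.020 to 4.40%. HOXB13, which lies apart from the rest of the cluster and is known from prostate and hindgut, had 6.35, 5.51, 9.78 and 7.35 CPM, higher in both rIL-17B libraries.

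The HOXC cluster (chromosome 12, 53938765 to 54056030, plus strand) kept the highest share of its summed PBS level in rIL-17B replicate 1. It gave 31.6% and 31.0% of HOX counts with PBS, 51.3% in rIL-17B replicate 1 (Wilson 95% interval 49.1 to 53.5) and 35.6% in rIL-17B replicate 2 (34.1 to 37.0), while its summed CPM was 86.9, 93.4, 69.0 and 86.8 in the 4 libraries. HOXC4, its most 3′ gene, had 18.9 and 23.7 CPM with PBS, 23.1 CPM in rIL-17B replicate 1 and 21.8 CPM in rIL-17B replicate 2. HOXC5 had 12, 15, 15 and 8 counts, near the limit of what these libraries measure, and HOXC6 had 19.1, 19.8, 8.69 and 18.2 CPM. HOXC8, a gene of the thoracic region, had 18.8, 17.5, 4.04 and 16.5 CPM. HOXC6 and HOXC8 were the 2 genes of the cluster that were at least 2-fold lower in rIL-17B replicate 1, at 44.7% and 22.2% of the PBS mean, and they lie between genes that were not. HOXC9 had 6.98, 7.53, 6.43 and 5.58 CPM. HOXC10, expressed in hindlimb and lower spinal cord, had 15.3, 16.4, 17.1 and 17.1 CPM. HOXC11 had 1.51, 1.71, 2.12 and 1.94 CPM, and HOXC13, which acts in hair and nail, had 5.60, 5.66, 6.43 and 5.30 CPM. Across these 4 posterior genes the 2 rIL-17B libraries lay between 77.0% and 132% of the PBS mean.

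The HOXD cluster (chromosome 2, 176092891 to 176190907, plus strand) was the quietest, at between 3.83% and 5.14% of the HOX counts of a library. HOXD8 had 7.67 and 4.89 CPM with PBS, 5.27 CPM in rIL-17B replicate 1 and 5.75 CPM in rIL-17B replicate 2, and both rIL-17B values lay inside the PBS range. Its PBS libraries differed more than those of any other HOX gene tested, by 0.60 on the log2 scale with 0.5 CPM added. HOXD9 had 1.45, 2.33, 1.51 and 1.99 CPM, also within the PBS range. The next genes 5′ were different. HOXD10, a gene of the hindlimb and its motor neurons, had 27 and 33 counts with PBS, 1 in rIL-17B replicate 1 and 32 counts in rIL-17B replicate 2, and the single count is 3.28% of the pooled PBS level (exact 95% interval 0.082 to 19.0%). HOXD11, of the forearm and kidney, had 13, 13, 1 and 4 counts. Of the 31 genes that reached 1 CPM it was lowest in rIL-17B replicate 2, at 25.2% of the pooled PBS level (6.40 to 72.7%), with 7.58% (0.185 to 46.1%) in rIL-17B replicate 1. HOXD10 and HOXD11 share 452 exon bases on the same strand.

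Over all 31 genes, on library totals, 14 were below 25% of the PBS mean in rIL-17B replicate 1. Another 4 lay between 25 and 50%, 5 between 50 and 100% and 8 above it. The TMM factors were 0.970 and 0.982 with PBS and 1.07 in rIL-17B replicate 1. Percentages in that library would be lower with TMM, and values little above 100% could fall below it. The range of rIL-17B replicate 2 was narrower, from 25% for HOXD11 to 124% for HOXB13 with a median of 81.1%. With 0.5 CPM added, 17 of the 31 genes were at least 2-fold lower in rIL-17B replicate 1 and none was 2-fold higher, where 18.6% of all 16361 genes tested were 2-fold lower and 2.61% higher. In rIL-17B replicate 2 none of the 31 was 2-fold away from the PBS mean, where 0.636% of all genes were, and between the PBS libraries none was, again with 0.636% of all genes. The median log2 ratio of the 31 genes to the PBS mean was -1.23 in rIL-17B replicate 1, where that of all genes was 0.08, and it stayed at -1.23 with HOXB8 set to its bound. In rIL-17B replicate 2 the medians were -0.28 for the HOX genes and 0.00 for all genes. Each of the 31 passed the filter on low counts, which asks for a level in 2 libraries, so genes near 0 in rIL-17B replicate 1 were kept through the other 3, and the counts and medians over the 31 are descriptions of genes kept in that way.

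**Figure D3:**
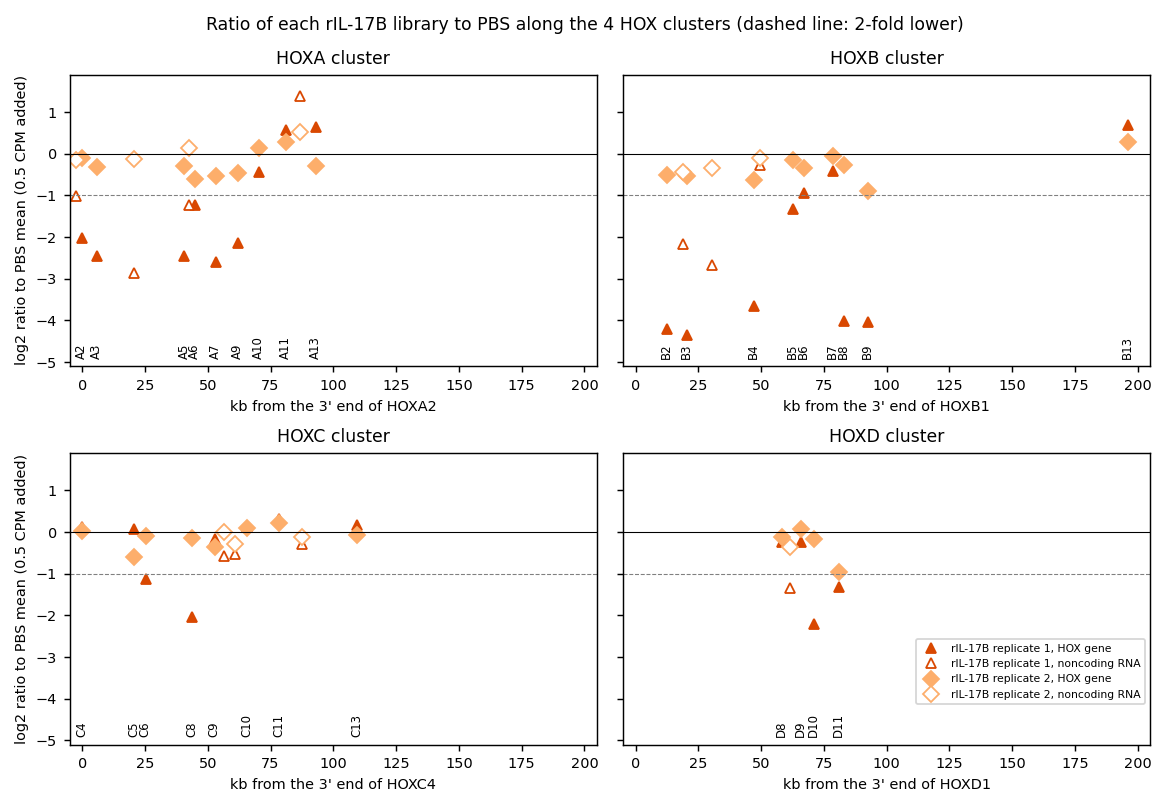
Log2 ratio of each rIL-17B library to the PBS mean, with 0.5 CPM added, against the distance in kb from the 3′ end of HOXA2, HOXB1, HOXC4 or HOXD1 (middle of the gene for noncoding RNAs); filled points are HOX genes and open points noncoding RNAs that reached 1 CPM in a library, and letters give the HOX gene. In rIL-17B replicate 1 the ratios reach -4.35 at HOXB3 and lie at 0.68 at HOXB13, while those of rIL-17B replicate 2 lie between -0.96 at HOXD11 and 0.52 at HOXA11-AS.

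The comparison of the 2 rIL-17B with the 2 PBS libraries called no HOX gene. With edgeR's quasi-likelihood test and Benjamini-Hochberg adjustment over all 16361 genes, 0 of the 31 HOX genes passed an adjusted p of 0.05, and 0.0% of all genes did. At an unadjusted p under 0.05 there was 1 HOX gene, HOXD11, against 1.38% of all genes, and DESeq2 called 0 HOX genes at either threshold, where it called 0.0% and 1.71% of all genes. HOXD11 had a log2 fold change of -2.57 (SE 0.75, adjusted p = 0.661 by edgeR). HOXB9 had -1.95 (SE 1.69), HOXB4 -1.57 (SE 1.27) and HOXA7 -1.55 (SE 1.28), with standard errors near the size of the change. The largest positive values were 0.45 (SE 0.25) for HOXB13 and 0.37 (SE 0.23) for HOXA11. 25 of the 31 estimates were negative and 6 positive, where 47.39% of all genes were positive, and their median was -0.73 against -0.03 over all genes. In 22 of the 31 genes the groups did not overlap in TMM-normalized CPM, 19 with both rIL-17B libraries lower and 3 with both higher (HOXA11, HOXB13 and HOXC11), against 30.4% lower and 28.5% higher over all genes. With 2 libraries a group, the smallest two-sided p of an exact permutation test would be 0.33.

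The calls depended on which rIL-17B library was in the fit. Without rIL-17B replicate 1, HOXB3 fell by 0.53 on the log2 scale (SE 0.11, edgeR adjusted p = 0.000556), HOXB4 by 0.66 (SE 0.18, adjusted p = 0.0157) and HOXB9 by 0.97 (SE 0.24, adjusted p = 0.00447). Those 3 were the only HOX genes called, 9.68% of the 31, where 2.3% of all genes tested were called lower and 0.643% higher. All 3 belong to the HOXB cluster, and HOXB3 and HOXB4 share exon bases on the same strand. HOXB2 had a log2 fold change of -0.53 (SE 0.19) in that fit and was not called (edgeR adjusted p = 0.124). In this fit, and in the fit without rIL-17B replicate 2, the lone rIL-17B library is assumed to vary like the PBS libraries. The p-values of both fits thus hold no spread between rIL-17B libraries. Without rIL-17B replicate 2, 20 HOX genes were called lower and 2 higher, 64.5% and 6.45% of the 31, where 31.9% of all genes were called lower and 23.2% higher. The 2 higher were HOXA11, by 0.44 (SE 0.20, adjusted p = 0.0439), and HOXB13, by 0.58 (SE 0.23, adjusted p = 0.0221). HOXB3 fell by 4.78 and HOXA5 by 2.82 in that fit. With all 4 libraries their log2 fold changes were -1.46 (SE 1.38) and -1.08 (SE 0.90). HOXA13, HOXC4, HOXC5, HOXC9, HOXC10, HOXC11, HOXC13, HOXD8 and HOXD9 were called in neither fit. Whether the 2 rIL-17B libraries differed from each other in a HOX gene was not tested, since each is 1 library.

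**Figure D4:**
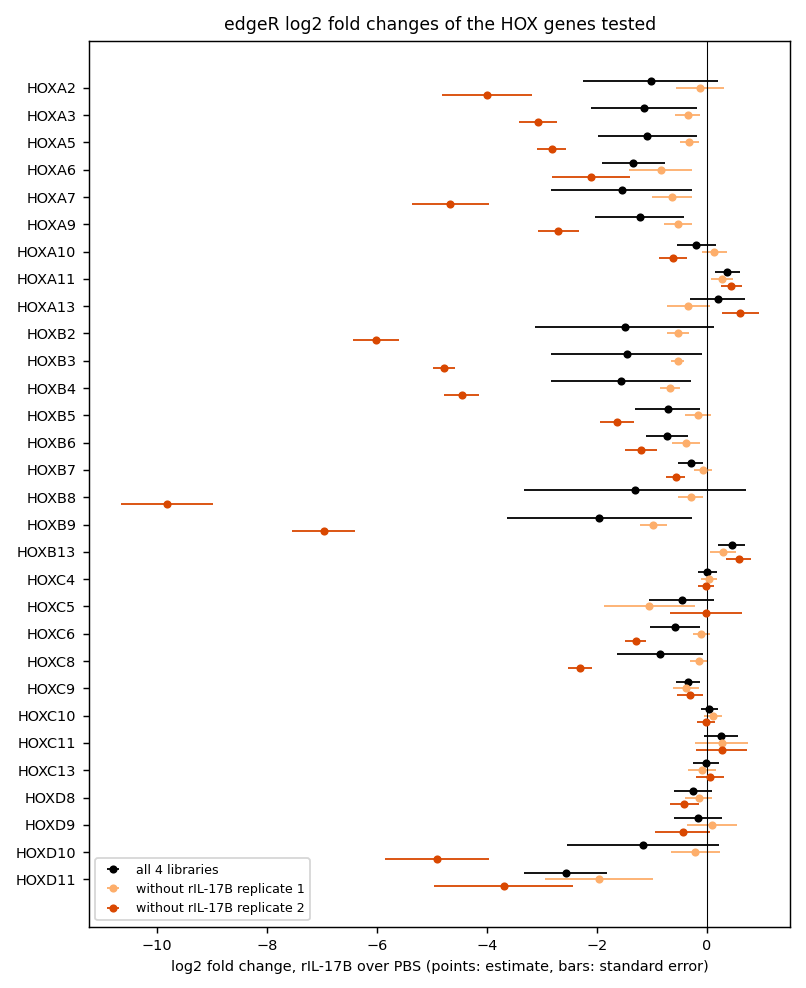
Log2 fold change of rIL-17B over PBS from edgeR for the HOX genes described, with a standard error derived from the F statistic. The fits are of all 4 libraries (black), without rIL-17B replicate 1 (light) and without rIL-17B replicate 2 (dark). HOXC10 lies within 0.11 of 0 in all 3 fits, while HOXB3 is at -1.46, -0.53 and -4.78; the value of HOXB8 without rIL-17B replicate 2 rests on 0 counts and depends on the prior count of the fit.

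The TALE cofactors were all detected, and none of the 9 was called with all 4 libraries. PBX2, a DNA-binding partner of HOX proteins, had 48.1 and 60.1 CPM with PBS, 57.3 CPM in rIL-17B replicate 1 and 53.4 CPM in rIL-17B replicate 2. PBX3 had 15.5, 14.6, 12.1 and 13.8 CPM in that order. Both were thus present in every library, also where the anterior HOX genes were near 0. PBX4 had 1.82, 1.24, 1.16 and 1.54 CPM. MEIS1 had 21.1, 24.9, 23.3 and 22.6 CPM, and MEIS2 had 29.4, 31.8, 29.6 and 27.9 CPM. MEIS3 differed more, with 20.9, 21.3, 7.87 and 14.9 CPM. It fell by 0.50 on the log2 scale without rIL-17B replicate 1 and by 1.56 without rIL-17B replicate 2, each a fit with 1 rIL-17B library. PKNOX1 had 21.3, 22.1, 19.4 and 19.6 CPM. PKNOX2 had 93, 75, 2 and 89 counts, and the 2 counts are 2.35% of the pooled PBS level (exact 95% interval 0.282 to 8.61%).

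Noncoding RNAs of the clusters were sparse, at 26.3 and 31.7 CPM in sum with PBS, 12.5 CPM in rIL-17B replicate 1 and 25.2 CPM in rIL-17B replicate 2. Of the 20 listed 18 had a count and 12 were tested. All 12 had a negative log2 fold change with all 4 libraries and none was called. HOXA-AS2 had 77, 69, 4 and 81 counts. HOXB-AS1 had 27, 31, 1 and 24 counts, and HOXB-AS2 had 41, 47, 1 and 41 counts. These 3 transcripts lie opposite or beside HOXA3, HOXB2 and HOXB3, and like those genes they were low in rIL-17B replicate 1. HOXB-AS3 had 65, 74, 58 and 80 counts. HOTAIR, the noncoding RNA between HOXC11 and HOXC12 that was described as a partner of Polycomb, had 42, 53, 39 and 54 counts. HOXA11-AS, chosen after its values were seen, had 3, 5, 23 and 11 counts, higher in both rIL-17B libraries like HOXA11. It shares exon bases with HOXA11 on the opposite strand, and it was not among the 12 tested with all 4 libraries. Without rIL-17B replicate 2, 7 noncoding RNAs were called lower and 1 higher of 14 tested, where 31.9% and 23.2% of all genes were, and without rIL-17B replicate 1 none of 13 was called.

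None of the 8 tested genes next to the clusters was 2-fold away from the PBS mean in either rIL-17B library. SKAP2, beside the anterior end of HOXA, had 38.5, 42.9, 25.7 and 38.2 CPM. HIBADH, beyond its posterior end, had 49.2, 49.6, 76.1 and 57.3 CPM. CALCOCO1 and CBX5 flank the HOXC cluster, with 91.4, 90, 58.8 and 84.8 CPM and 246, 252, 403 and 278 CPM. Over all genes the shares 2-fold away were 18.6% lower and 2.61% higher in rIL-17B replicate 1. Without rIL-17B replicate 2, 3 of the 8 were called lower and 4 higher, where 31.9% and 23.2% of all genes were, and without rIL-17B replicate 1 none was.

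Of 30 Polycomb genes none was called with all 4 libraries, 16 estimates were positive and 14 negative, and 3 were at least 2-fold lower and 1 higher in rIL-17B replicate 1, where 18.6% and 2.61% of all genes were. PHC2, a subunit of Polycomb repressive complex 1, had 171, 201, 58.0 and 152 CPM. RYBP, of variant complexes of that kind, had 70.5, 69.4, 33.7 and 61.1 CPM. CBX2, which compacts chromatin, had 40.5, 46.9, 91.5 and 52.9 CPM. RBBP4 and RBBP7, histone-binding subunits of Polycomb repressive complex 2 among others, had 180, 190, 264 and 204 CPM and 206, 200, 361 and 237 CPM. Without rIL-17B replicate 1 only PHC2 of the 30 was called, lower by an estimated -0.29 (edgeR adjusted p = 0.0382). Without rIL-17B replicate 2, 11 of the 30 were called lower and 10 higher, where 31.9% and 23.2% of all genes were.

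Among 16 trithorax and MLL genes 13 estimates were positive and none was called with all 4 libraries. KMT2D, an H3K4 methyltransferase of enhancers, had 232, 276, 313 and 233 CPM. Its relative KMT2C had 132, 147, 155 and 141 CPM, and NSD1, an H3K36 methyltransferase, had 132, 138, 171 and 141 CPM. On library totals, levels of these enzymes in rIL-17B replicate 1 were above both PBS libraries. With TMM and all 4 libraries, the log2 fold changes of KMT2D, KMT2C and NSD1 were 0.026 (SE 0.17), 0.018 (SE 0.11) and 0.14 (SE 0.11). WDR5 and DPY30, core subunits of the MLL complexes, had 58.2, 56.2, 90.4 and 62.5 CPM and 28.4, 27.1, 42.6 and 32.9 CPM. KDM6B, a demethylase that removes the Polycomb mark from H3K27, had 35.9, 46.6, 15.4 and 30.8 CPM and was the gene of the list that was at least 2-fold lower in rIL-17B replicate 1. KMT2A and KMT2B had the other 2 negative estimates, -0.19 and -0.24. KDM6B fell by 0.42 on the log2 scale without rIL-17B replicate 1 and by 1.55 without rIL-17B replicate 2.

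Genes of retinoic acid signalling included both kept and low transcripts in rIL-17B replicate 1. The receptors RXRA and RXRB had 53.6, 55.2, 58.6 and 56.8 CPM and 52.6, 54.5, 67.9 and 57.3 CPM. RARB, a receptor gene that retinoic acid itself induces, had 177, 120, 2 and 162 counts, where the 2 counts are 1.33% of the pooled PBS level (exact 95% interval 0.160 to 4.84%). DHRS3, a retinal reductase that is also induced by retinoic acid, had 160, 134, 11.2 and 143 CPM. ALDH1A3, which makes retinoic acid, had 113, 81, 0 and 97 counts. A floor of 3 counts in rIL-17B replicate 1 is 32.61-fold below its PBS mean. The exact 95% interval there ran from 0 to 3.78% of the pooled PBS level. In rIL-17B replicate 2 these 3 genes were at 90.3%, 97.6% and 82.5% of the PBS mean. None of the 12 retinoic acid genes tested was called with all 4 libraries, none of 13 without rIL-17B replicate 1, and 6 lower and 3 higher of 13 without rIL-17B replicate 2, where 31.9% and 23.2% of all genes were.

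Of 14 ParaHox genes and upstream regulators 11 had a count and 6 were tested, with none called when all 4 libraries were used. GDF11, a ligand that sets the trunk-to-tail transition, had 45.5, 44.6, 54.1 and 42.8 CPM, and OTX1, a head gene, had 5.78, 6.98, 7.05 and 6.15 CPM. GBX2, which sets the front border of the hindbrain, had 23, 26, 28 and 14 counts. EGR2, a hindbrain factor that acts on anterior HOX genes, was low in rIL-17B replicate 1, with 110, 112, 1 and 89 counts. The single count of EGR2 is 0.887% of the pooled PBS level (exact 95% interval 0.022 to 5.0%). EGR2 was named for its distance from the PBS mean. Its log2 fold change was -6.78 without rIL-17B replicate 2 and -0.62 without rIL-17B replicate 1, each a fit with 1 rIL-17B library.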

How the data were processed

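HGC-27 RNA was sequenced by Smart-seq2 (oligo-dT primed, PCR amplified). Monocytes are named in the labelled library protocol, but HGC-27 in the sample labels. The authors deposited raw counts per gene name. The submitters' processing notes name hg38, Bowtie2 2.2.3, HISAT2 2.1.0, TopHat2 and HTSeq 0.6.0; the annotation and the strand setting are not given in the sources used here. Names with 0 counts were not listed and were set to 0. Between 22 and 25 date-like entries per library (0.228 to 0.244% of counts) were left out, and of 83 to 98 names listed more than once, always with equal counts, 1 entry was kept. 97.84% of the 31907 names were found once in GENCODE 29 (GRCh38), the source of coordinates and exon lengths.

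CPM and RPKM use library totals, and log2 ratios add 0.5 CPM. The HOX list and the other gene lists were chosen with earlier results of these data known. Differences were tested on all genes with edgeR 4.0.16 in R 4.3.3 (TMM, filterByExpr, quasi-likelihood F test, Benjamini-Hochberg, threshold 0.05), checked on simulated data. Alternatives were DESeq2 1.42.0, other normalizations and filters, a replicate block and leaving out each library. HOX genes at 1 CPM or more in a library are named with each value, and a few items are not reported here. From other lists all TALE cofactors, and the 3 genes highest in CPM and 3 furthest from the PBS mean, are named. PCR copies are not independent molecules, so floors and intervals cover counting error only. No paired design was assumed: the deviations of libraries with the same number from the means of their groups correlated with r = 0.08 across genes, and the labels tie no numbers together.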

Additional observations from a re-analysis of the deposited data

How the results depend on the processing

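With all 4 libraries, no HOX gene and no gene of any other list passed an adjusted p of 0.05 under upper-quartile normalization, library totals alone, DESeq2, no filter, at least 10 counts in every library or the replicate block; the block, in which the shared number is only a number (r = 0.08), left 0 of 31 HOX genes called and 0 at an unadjusted p under 0.05. Leaving out 1 library at a time gave 0 to 22 HOX genes and 0 to 9489 genes in all (504 without rIL-17B replicate 1 and 9489 without rIL-17B replicate 2). In the other lists it gave 0 to 4 TALE cofactors, 0 to 21 Polycomb, 0 to 11 trithorax and MLL, 0 to 9 retinoic acid, 0 to 2 ParaHox and upstream genes, 0 to 8 noncoding RNAs, 0 to 7 neighbours, and 0 to 6 epithelial, 0 to 4 gastric, 0 to 12 mesenchymal and 0 to 10 monocyte markers. The median HOX log2 fold change ranged from -1.64 to -0.30. The highest counts all came from leaving out rIL-17B replicate 2, and the cause was not tested. In that fit 31.9% of all 17223 genes tested were called lower and 23.2% higher. The lists had 9 TALE, 30 Polycomb, 16 trithorax and MLL, 13 retinoic acid and 6 ParaHox and upstream genes tested there. Tested too were 14 noncoding RNAs, 8 neighbours, and 10 epithelial, 6 gastric, 14 mesenchymal and 10 monocyte markers. With 1 rIL-17B library in that fit, its counts hold no spread between rIL-17B libraries.

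At 5 CPM, 20, 9 and 18 HOX genes counted as expressed in PBS replicate 2, rIL-17B replicate 1 and rIL-17B replicate 2. With 2 CPM added, 11 HOX genes were 2-fold away from the PBS mean in rIL-17B replicate 1, and with 0.1 CPM added 6 of the 38 with a count were in rIL-17B replicate 2, of which only HOXD11 belongs to the 31 that reached 1 CPM; leaving out a PBS library gave 0 to 2 there. Without the HOX gene of highest count the summed CPM was 231 and 245 in the PBS libraries. That gene was HOXB3 in the PBS libraries and rIL-17B replicate 2, but HOXC4 in rIL-17B replicate 1. Without it the HOXB share was 33.0, 34.7, 27.9 and 30.5% in PBS replicates 1 and 2 and rIL-17B replicates 1 and 2. The HOXC share was 37.6, 38.1, 41.2 and 41.4%. The shares of rIL-17B replicate 1 thus leave out a different gene from those of the other libraries. Per kilobase of exon the HOXB share was 38.3, 40.3, 25.7 and 36.2%, and the HOXC share 35.0, 34.8 and 38.3% in PBS replicates 1 and 2 and rIL-17B replicate 2. HOXB thus stayed below HOXC in rIL-17B replicate 1 under both settings, while in the PBS libraries HOXB was above HOXC per kilobase of exon and below it without HOXB3.

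7 genes near 0 changed sign. Leaving out 1 library moved HOXA10 between -0.62 and 0.14, HOXA13 between -0.34 and 0.61, HOXC4 between -0.14 and 0.17, HOXC10 between -0.022 and 0.11, HOXC13 between -0.091 and 0.055, HOXD8 between -0.55 and 0.12 and HOXD9 between -0.46 and 0.21. HOXC4 was at -0.029 with at least 10 counts in every library, and HOXC13 at 0.058 with library totals alone. Genes with under about 3 counts in a library, such as HOXB8 and HOXB9 in rIL-17B replicate 1, have ratios that depth limits to bounds or wide intervals.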
